A study of Mus musculus with 6 samples.

Results

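The genes described here are 10 genes of phosphate transport, vitamin D metabolism and the Klotho axis, chosen by gene symbol from the 24422 genes of the count tables. They are the sodium-phosphate cotransporters Slc34a1, Slc34a2, Slc34a3, Slc20a1 and Slc20a2, the hormone receptor genes Kl, Pth1r and Vdr, and the vitamin D enzymes Cyp27b1 and Cyp24a1. All 10 were present and all 10 passed the filter on low counts, by which 15171 genes were tested. Poly-A RNA from whole kidneys of C57BL/6 mice was sequenced at postnatal day 60, from 3 control kidneys (wild type) and 3 TfR1KO;KspCre kidneys (genotype Tfr1f/f;KspCre), all under an iron sufficient diet with 220 ppm iron. In the latter, here called knockouts, Cre recombinase is driven by the Ksp-cadherin (Cdh16) promoter, which is active mainly in the distal nephron, and removes floxed exons of the transferrin receptor gene TfR1 (Tfrc). The comparison asks which transcripts of the whole kidney differ after TfR1 is lost from those segments. For mice of the knockout genotype the study reports kidney failure, anemia and weight loss. It also describes tubular cysts, in most kidneys by the age sequenced here, and bands of fibrosis around them. Whether a transcript differed through the loss of the receptor itself or through this kidney disease was not tested. The study describes its sequenced controls as wild-type littermates and its groups as 3 mice each, but the sample labels tie no kidney to an animal or a litter.

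The kidney sets the phosphate balance of the body. Phosphate filtered into the tubule is taken back by cotransporters in the brush border of the proximal tubule, and parathyroid hormone and the bone hormone FGF23 (which acts through FGF receptors with Klotho as co-receptor) remove these carriers from the membrane. The same tubule activates vitamin D, which then acts through its nuclear receptor on calcium and phosphate uptake, and the activating and the degrading enzyme are regulated in opposite directions.

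Total counts ranged from 18036845 to 21001341 in the controls and from 11501053 to 19576330 in the knockouts. On the first principal component (69.4% of the variance) the controls lay between -72.6 and -53.2 and knockouts 2 and 3 at 88.6 and 82.1, while knockout 1 lay apart from them at 9.67. Control 2 held 3980 counts of 4 Y-linked genes and the other 5 libraries held 3 to 5, so sex was not balanced between the groups. Tfrc read 138, 168 and 61.9 CPM (TMM-normalised counts for each 1000000 counted) in controls 1 to 3 and 214, 85.9 and 40.6 CPM in knockouts 1 to 3. The groups overlapped, and because reads were counted over the whole gene and Cre acts in only some of the cells, Tfrc gives no check of the labels. Of 16 proximal tubule markers, 16 were lower in the knockouts and 11 of these were called, and their summed level was 15534 to 21119 CPM in controls and 2761 to 8495 CPM in knockouts. Macrophage markers moved the other way (9 of 10 called higher, summed 195 to 223 CPM against 629 to 2256 CPM), as did myofibroblast and fibroblast markers (4 of 8 called higher, summed 361 to 689 CPM against 1059 to 4097 CPM) and tubular injury markers (7 of 9 called higher, summed 1615 to 4033 CPM against 6247 to 9299 CPM). Over all genes tested, 6.64% were called lower and 10.6% higher. In RNA of whole kidney, fewer cells of a type and less RNA per cell cannot be told apart. By staining for megalin, the study reports a limited loss of proximal tubules in this genotype, with a similar tubule diameter. Those tubule counts were not compared with the RNA levels here.

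Of the 10 genes, 4 fell in the knockouts, namely Slc34a1, Slc34a3, Pth1r and Vdr, and 0 rose (edgeR's quasi-likelihood test, Benjamini-Hochberg adjusted p under 0.05). Among all genes tested the share called was 17.2%, with 6.64% lower and 10.6% higher. The libraries of the groups did not overlap for 7 genes, of which 6 were lower and 1 higher in the knockouts, against 46% of all genes tested (22.2% lower and 23.8% higher). The median log2 fold change (knockout over control) was -1.05 over the 10 genes and 0.02 over all genes tested. With all 6 libraries, 7 of the 10 genes had an unadjusted p under 0.05, and 38.6% of all genes did.

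The 3 phosphate carriers of the Slc34 family differed in direction. Slc34a1 (NaPi-IIa, ENSMUSG00000021490, chr13:55501009-55516056, plus strand, mm9) encodes the main phosphate carrier of the proximal brush border. Its level was 4191, 6072 and 6287 CPM in controls 1 to 3 and 2270, 765 and 769 CPM in knockouts 1 to 3. Every knockout lay below every control, and knockout 1 kept 41.1% of the control mean where knockouts 2 and 3 each kept 13.9%. The control mean was 5517 ± 1153 CPM and the knockout mean 1268 ± 868 CPM (SD, n = 3 each), a 4.35-fold lower level (log2 fold change -2.12, SE 0.54, adjusted p = 0.0432 by edgeR).

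Slc34a3 (NaPi-IIc, ENSMUSG00000006469, chr2:25084418-25089884, minus strand), the second brush border carrier, fell furthest of the 10 genes. Its level was 60.0, 52.6 and 120 CPM in controls 1 to 3 and 18.0, 8.17 and 8.27 CPM in knockouts 1 to 3. The groups did not overlap, control 3 stood high among the controls, and knockouts 2 and 3 were again close to each other and below knockout 1. The mean was 6.72-fold lower in the knockouts (log2 fold change -2.75, SE 0.45, edgeR adjusted p = 0.0278).

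Slc34a2 (NaPi-IIb, ENSMUSG00000029188, chr5:53429321-53462903, plus strand), the carrier known best from intestine and lung, was scarce and lay the other way. It read 7.90, 6.34 and 5.70 CPM in controls 1 to 3 (159, 108 and 95 counts) and 27.3, 18.8 and 8.80 CPM in knockouts 1 to 3 (556, 374 and 115 counts). Every knockout lay above every control, with knockout 1 highest. The fold change was 2.75 (log2 fold change 1.46, SE 0.41), and the edgeR adjusted p of 0.0516 missed the threshold. It was called in 4 of 16 alternative analyses, among them DESeq2's Wald test.

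The Slc20 carriers, which serve phosphate uptake in most cell types, had small differences. Slc20a1 (PiT-1, ENSMUSG00000027397, chr2:129024500-129037352, plus strand) read 51.4, 52.2 and 78.9 CPM in controls 1 to 3 and 68.5, 59.5 and 71.0 CPM in knockouts 1 to 3, and the groups overlapped. Its log2 fold change was 0.12 (SE 0.20, edgeR adjusted p = 0.670). Slc20a2 (PiT-2, ENSMUSG00000037656, chr8:23587172-23680079, plus strand) read 55.5, 57.4 and 55.5 CPM in controls 1 to 3 and 45.7, 44.3 and 49.2 CPM in knockouts 1 to 3. Both groups were tight and did not overlap, with the knockouts lower. The log2 fold change of -0.28 (SE 0.11) was not called by edgeR (adjusted p = 0.123), and scaling by library size alone, which moved the median over all genes from 0.02 to 0.29, took it to -0.00306.

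**Figure D1:**
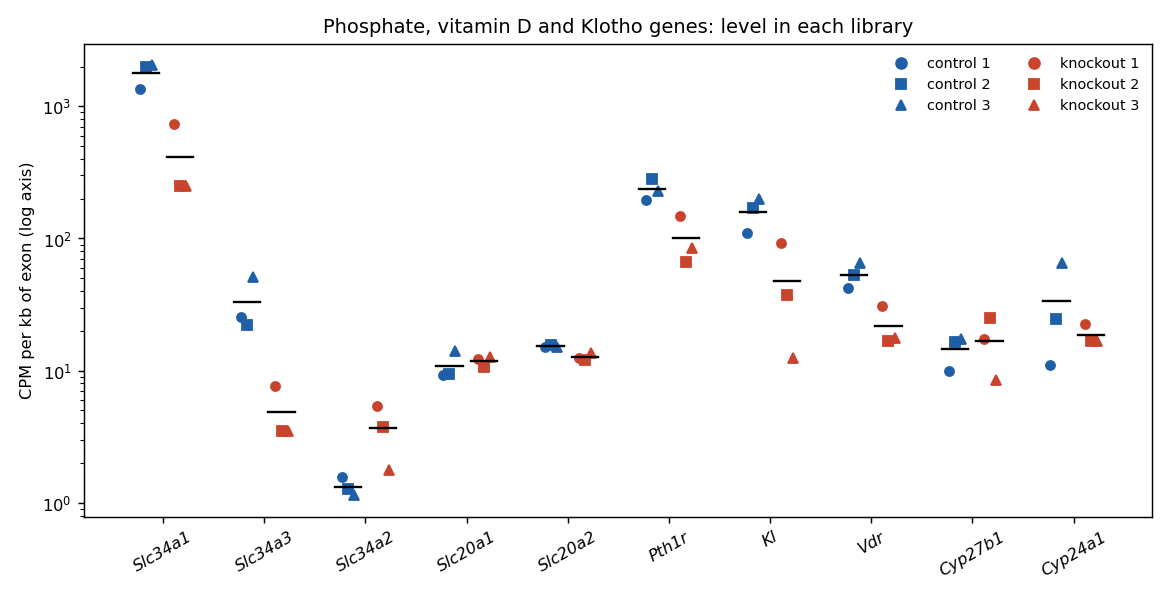
Level of each of the 10 genes in each library, in CPM per kb of exon on a log axis (blue, controls 1 to 3; red, knockouts 1 to 3; black bars, group means). Slc34a1 lies highest in both groups, and the knockouts lie below the controls for Slc34a1, Slc34a3, Slc20a2, Pth1r, Kl and Vdr and above them for Slc34a2.

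Levels of different genes were compared as CPM per kb of exon, with exon length from the GENCODE M1 annotation. In the controls the mean order was Slc34a1 (1788), Pth1r (236), Kl (159), Vdr (53.3), Cyp24a1 (33.6), Slc34a3 (32.9), Slc20a2 (15.4), Cyp27b1 (14.6), Slc20a1 (10.9) and Slc34a2 (1.33 CPM per kb). Neighbours in that order did not overlap only for Slc34a1 and Pth1r, Kl and Vdr, Slc34a3 and Slc20a2, and Slc20a1 and Slc34a2. In the knockouts Slc34a1 was still first at 411 CPM per kb, followed by Pth1r (mean ± SD of 100.02 ± 43.3), Kl (47.5), Vdr (21.8), Cyp24a1 (18.6), Cyp27b1 (16.9), Slc20a2 (12.7) and Slc20a1 (11.9). Slc34a3 had gone from the sixth place to the ninth, at 4.88 CPM per kb, just above Slc34a2 at 3.65 CPM per kb, and the ranges of these last neighbours overlapped. The only neighbours in the knockout order that did not overlap were Slc34a1 and Pth1r, and Slc20a1 and Slc34a3.

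The carriers were also set against each other within each library, as ratios of CPM per kb. Slc34a1 stood at 55.6, 78.4 and 69.5 times the sum of Slc20a1 and Slc20a2 in controls 1 to 3, and at 29.7, 10.9 and 9.51 times that sum in knockouts 1 to 3. The ratio was lower in every knockout than in every control, and lowest in knockouts 2 and 3. Slc34a1 stood at 861, 1555 and 1792 times Slc34a2 in controls 1 to 3 and at 135, 66.2 and 142 times in knockouts 1 to 3, again with no overlap. The ratio of Slc34a3 to Slc34a1 overlapped between the groups (mean log2 ratio -5.84 ± 0.58 in controls and -6.30 ± 0.25 in knockouts, SD, n = 3 each).

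Pth1r (ENSMUSG00000032492, chr9:110624592-110649649, minus strand) encodes the receptor for parathyroid hormone, which lowers phosphate uptake and raises vitamin D activation. It read 536, 768 and 628 CPM in controls 1 to 3 and 406, 180 and 232 CPM in knockouts 1 to 3. The groups did not overlap, with knockout 1 nearest to the controls. The control mean was 644 ± 117 CPM and the knockout mean 273 ± 118 CPM (SD, n = 3 each), 2.36-fold lower (log2 fold change -1.24, SE 0.34, edgeR adjusted p = 0.0480), and scaling by library size alone ended this call (log2 fold change -0.98).

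Kl (ENSMUSG00000058488, chr5:151755182-151796384, plus strand) encodes Klotho, the co-receptor through which FGF23 binds its receptor, made in the distal convoluted tubule and at lower level in the proximal tubule. It read 561, 873 and 1008 CPM in controls 1 to 3 and 474, 190 and 63.8 CPM in knockouts 1 to 3. All knockouts lay below all controls, but they were widely spread, at 58.2%, 23.3% and 7.83% of the control mean. The means were 814 ± 229 CPM and 242 ± 210 CPM (SD, n = 3 each), and the log2 fold change of -1.75 (SE 0.67) was not called by edgeR (adjusted p = 0.105). Leaving out 1 library moved the log2 fold change between -2.69 (without knockout 1) and -1.30 (without knockout 3), with edgeR adjusted p from 0.0126 to 0.241. Kl was called in 2 of 16 alternative analyses, namely without knockout 1 and by DESeq2's Wald test.

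The summed level of the distal convoluted and connecting tubule markers was 2777, 1563 and 1032 CPM in knockouts 1 to 3 and 2955 to 4057 CPM in controls. Of 7 tested, 2 were called, both lower, against 17.2% of all genes called and 6.64% called lower. Slc12a3, the thiazide-sensitive sodium chloride carrier that defines the distal convoluted tubule, read 1249, 552 and 61.6 CPM in knockouts 1 to 3 and 1114 to 1685 CPM in controls. Kl, Slc12a3 and the marker sum, which includes Slc12a3, each ranked knockout 1 highest and knockout 3 lowest. Of the 7 tested markers, 4 were lowest in knockout 3 (Slc12a3, Wnk1, Klhl3 and Kcnj16) and 3 in knockout 2, namely Pvalb (9.86, 0.602 and 2.37 CPM in knockouts 1 to 3), Trpm6 (35.2, 22.5 and 28.5 CPM) and Wnk4 (345, 149 and 294 CPM). The summed proximal tubule markers ranked the knockouts in the same order as Kl, at 8495, 3982 and 2761 CPM in knockouts 1 to 3. The part of distal or of proximal cells in the level of Kl was not tested.

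Vdr (ENSMUSG00000022479, chr15:97684856-97741061, minus strand) encodes the nuclear receptor for active vitamin D. It read 238, 297 and 369 CPM in controls 1 to 3 and 174, 94.4 and 101 CPM in knockouts 1 to 3. The groups did not overlap, and knockout 1 was again the nearest to the controls. The mean went from 301 ± 65.8 CPM to 123 ± 44.4 CPM (SD, n = 3 each), 2.45-fold lower (log2 fold change -1.29, SE 0.30, edgeR adjusted p = 0.0361).

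The vitamin D enzymes were not called. Cyp27b1 (ENSMUSG00000006724, chr10:126485306-126490062, plus strand), which makes the active hormone, read 25.7, 42.6 and 44.4 CPM in controls 1 to 3 and 44.8, 64.0 and 21.7 CPM in knockouts 1 to 3. The knockouts held both the highest and the lowest value, and the log2 fold change was 0.21 (SE 0.40, edgeR adjusted p = 0.719). Cyp24a1 (ENSMUSG00000038567, chr2:170308208-170322645, minus strand), which degrades it and is itself induced through Vdr, read 39.4, 87.7 and 232 CPM in controls 1 to 3 and 79.7, 59.6 and 59.6 CPM in knockouts 1 to 3.

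All 3 knockouts lay within the range of the controls for Cyp24a1, which was wide because control 3 stood high. Its log2 fold change was -0.85 (SE 0.58, edgeR adjusted p = 0.311) and went to 0.05 without control 3. The log2 ratio of Cyp24a1 to Cyp27b1 counts (0.5 added to each) was 0.62, 1.04 and 2.38 in controls 1 to 3, as compared with 0.83, -0.10 and 1.46 in knockouts 1 to 3. The groups overlapped, and the mean difference of -0.62 was within their spread (exact permutation test, two-sided, p = 0.5, where 3 libraries against 3 cannot go below 0.1).

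**Figure D2:**
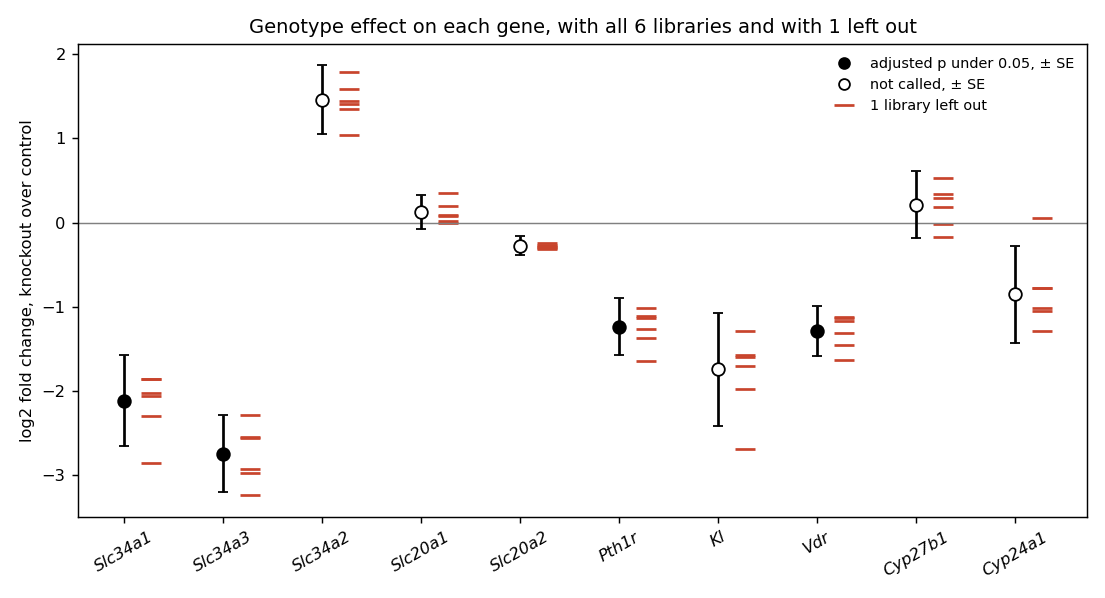
Log2 fold change of each of the 10 genes, knockout over control (circles, all 6 libraries, filled where the edgeR adjusted p is under 0.05; bars, ± SE; red dashes, the fold change with 1 library left out). The 4 called genes stay below 0 whichever library is left out, and the dashes cross 0 for Slc20a1, Cyp27b1 and Cyp24a1.

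How far these calls rest on single libraries was examined by leaving out each library in turn. Slc34a1 ranged from -2.86 to -1.86 in log2 fold change, Slc34a3 from -3.25 to -2.29, Pth1r from -1.65 to -1.01 and Vdr from -1.64 to -1.13. The direction of these 4 genes therefore held, but their edgeR calls did not: without control 1, control 2, control 3, knockout 2 or knockout 3, 0 of the 10 genes were called, and 5 to 7 of them had an unadjusted p under 0.05. The loss was general, since the same fits called 0, 0, 0, 73 and 2 of the 15408 to 15624 genes tested, with 4270 to 4823 at an unadjusted p under 0.05. Without knockout 1, 5 of the 10 were called (Kl being the fifth), beside 34.4% of all genes tested. With all 6 libraries DESeq2's Wald test called 6 of the 10, the added genes being Kl (lower) and Slc34a2 (higher), beside 32.2% of all genes (15% lower), and limma-voom called 4, all lower, beside 13.4% (6.05% lower). In edgeR's newer quasi-likelihood version Slc34a1 lost its call (adjusted p = 0.0754) and Slc34a2 gained one. With the ratio of Xist to Y-linked counts as a covariate, edgeR called 0 of the 10 and 0 of all 15171 genes, and 5 of the 10 and 4219 of all genes had an unadjusted p under 0.05.

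Slc34a1, Slc34a3, Pth1r and Cyp27b1 belong mainly to the proximal tubule, whose markers were lower too, so each of the 10 genes was also expressed relative to the summed counts of the 16 proximal tubule markers of the same library. The summed markers themselves differed by a mean of -2.01 on the log2 scale (CPM, knockout minus control). A gene with no difference in CPM would therefore show a ratio difference of 2.01, and a gene that moved as the markers did a difference of 0. On this scale the log2 ratio of Slc34a1 was -1.89, -1.62 and -1.75 in controls 1 to 3, against -1.90, -2.38 and -1.84 in knockouts 1 to 3. The groups overlapped, and the mean difference (knockout minus control) was -0.29 (exact permutation test, two-sided, p = 0.2). Slc34a3 differed by -0.75 and Kl by -0.13, both with overlap (exact permutation p = 0.2 and p = 0.9). Relative to the single gene Lrp2 (megalin), the difference for Slc34a1 turned to 0.34.

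Pth1r and Vdr differed by 0.70 and 0.68, between these values, without overlap of the groups (exact permutation p = 0.1 each). Slc20a1, Slc20a2 and Cyp27b1, which were not called as CPM, lay near the value of a gene with no difference, at 2.16, 1.73 and 2.13, and Slc34a2 lay at 3.34 (exact permutation p = 0.1 each). Cyp24a1 differed by 1.51 with overlap (exact permutation p = 0.2). The tests compare each difference with 0 and not with 2.01, so a positive value up to about 2.01 does not show that a gene was higher as CPM. With 3 libraries against 3, 0.1 is the smallest p that the test can give, and adjusted over the 10 ratios the values were 0.167, 0.222 or 0.9.

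**Figure D3:**
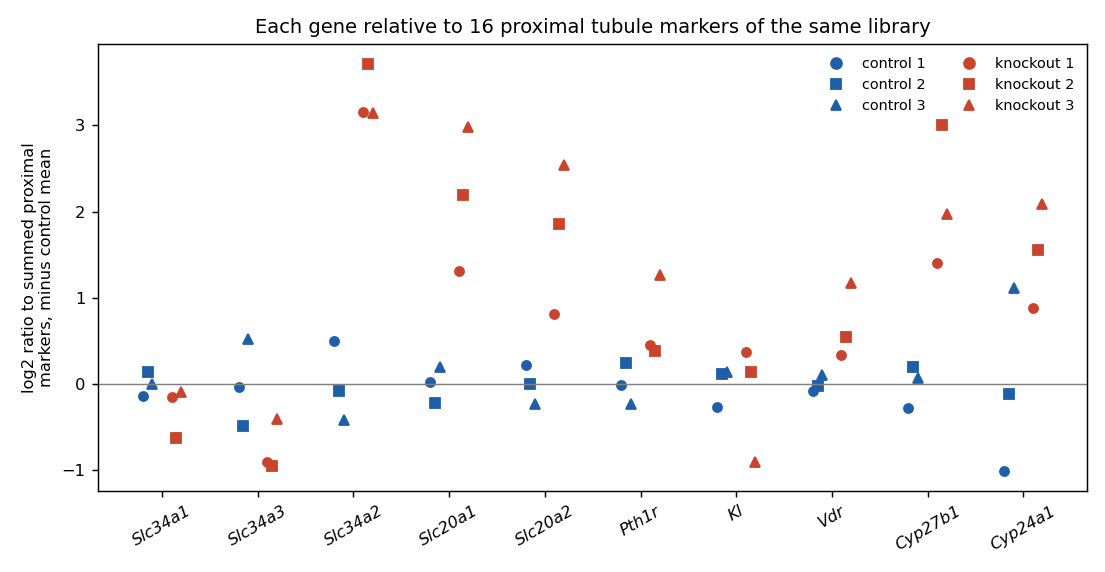
Log2 ratio of each of the 10 genes to the summed counts of 16 proximal tubule markers of the same library, with the control mean set to 0 (blue, controls; red, knockouts; 1 point per library). Slc34a1, Slc34a3, Kl and Cyp24a1 overlap between the groups, and the other 6 genes lie higher in all 3 knockouts, where a gene with no difference in CPM would lie 2.01 higher on average.

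The sequences just before the start of the 4 called genes are shown, since these genes were lower together. They are the 120 bases upstream of the RefSeq start in build GRCm38.p6, written 5′ to 3′ along the gene. Slc34a1 lies at chr13:55399528-55399647 (plus strand), Slc34a3 at chr2:25234235-25234354 (minus) and Vdr at chr15:97908297-97908416 (minus). Pth1r has 3 starts, with stretches at chr9:110747146-110747265, chr9:110743687-110743806 and chr9:110742611-110742730 (minus), given in that order.
Slc34a1: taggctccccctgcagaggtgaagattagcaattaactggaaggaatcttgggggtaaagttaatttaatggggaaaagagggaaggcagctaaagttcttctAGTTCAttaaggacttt
Slc34a3: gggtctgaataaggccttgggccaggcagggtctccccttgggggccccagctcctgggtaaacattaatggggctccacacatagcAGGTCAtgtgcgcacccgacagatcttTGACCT
Vdr: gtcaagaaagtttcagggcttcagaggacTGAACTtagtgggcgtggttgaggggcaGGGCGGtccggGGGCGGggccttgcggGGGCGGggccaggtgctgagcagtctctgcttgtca
Pth1r, first start: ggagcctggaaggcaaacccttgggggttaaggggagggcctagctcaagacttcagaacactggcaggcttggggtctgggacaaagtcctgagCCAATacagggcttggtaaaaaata
Pth1r, next start: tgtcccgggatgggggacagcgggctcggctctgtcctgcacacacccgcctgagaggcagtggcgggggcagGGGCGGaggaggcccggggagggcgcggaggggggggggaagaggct
Pth1r, last start: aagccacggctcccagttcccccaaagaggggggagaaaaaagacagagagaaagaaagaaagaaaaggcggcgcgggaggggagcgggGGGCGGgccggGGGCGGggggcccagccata
Capitals mark matches, on either strand, to the core motif AGGTCA, bound by nuclear receptors such as the vitamin D receptor, to its variant AGTTCA, to the TATA box motif TATAAA, to the box known as CCAAT, or to the GC box motif GGGCGG, and no motif contains another. RefSeq entries were had for 8 of the 10 genes, not for Slc20a2 or Cyp24a1.

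Slc34a3 held AGGTCA at 33 bases before its start and again, on the opposite strand, at 6 bases. Slc34a1 held AGTTCA at 17 bases, and Vdr held it on the opposite strand at 91 bases. Vdr also held GGGCGG at 63, 52 and 36 bases. The stretches of Pth1r held neither AGGTCA nor AGTTCA, and had CCAAT at 25 bases in the first and GGGCGG at 47 bases in the next and at 31 and 20 bases in the last. Among the genes that were not called, Slc20a1 held AGGTCA in both of its stretches (at 26 bases and, on the opposite strand, at 75 bases). The Slc20a1 stretch with the match at 26 bases also held GGGCGG at 46 bases. Kl held GGGCGG at 43 bases (opposite strand) and at 17 bases, Cyp27b1 held CCAAT at 86 bases (opposite strand) and Slc34a2 held none of the motifs. AGGTCA was thus found before 1 called gene and 1 uncalled gene. Of 32851 stretches of the same length in the RefSeq set, 6.91% held AGGTCA, 5.14% AGTTCA, 6.34% TATAAA, 21.3% CCAAT and 26.5% GGGCGG. The matches are letters in a window and were not tested for binding.

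The wider pathway was examined through 65 further genes, of which 59 passed the filter. Of these, 12 were called, 10 lower and 2 higher, and the median log2 fold change of the 59 was -0.29. Over all genes tested 17.2% were called, 6.64% lower and 10.6% higher, so the total lay near the background. The counts of each role group below stand beside the same shares.

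Among 16 genes of phosphate adaptors and other phosphate carriers, 5 fell, 0 rose and 11 were not called (median log2 fold change -0.66), against 6.64% of all genes called lower. Pdzk1, a scaffold that holds Slc34a1 in the brush border, read 1316, 1665 and 1468 CPM in controls 1 to 3 and 684, 296 and 233 CPM in knockouts 1 to 3. The groups did not overlap for Pdzk1 (log2 fold change -1.88, SE 0.44, edgeR adjusted p = 0.0368). Pdzd3, a related scaffold, fell by 1.69 on the log2 scale, and Slc17a3, an organic anion and phosphate carrier, fell by 2.78. Alpl, the alkaline phosphatase that frees phosphate from its esters, fell by 1.66, and Xpr1, the phosphate exporter, by 0.78, from 107 to 161 CPM in controls to 61.6 to 86.2 CPM in knockouts. Ezr (ezrin), which anchors these scaffolds to the cytoskeleton, read 456 to 488 CPM in controls and 355 to 551 CPM in knockouts, with a log2 fold change of -0.08.

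Of 20 genes of FGF23 and PTH signalling, 16 were tested, and 2 fell and 0 rose (median log2 fold change -0.20), against the same 6.64%. Fgfr4, an FGF receptor, read 54.8, 66.4 and 52.8 CPM in controls 1 to 3 and 33.1, 14.3 and 23.5 CPM in knockouts 1 to 3, with no overlap (log2 fold change -1.30, SE 0.30, edgeR adjusted p = 0.0364). Lctl, a relative of Klotho, was scarce in every library (2.76 to 4.97 CPM in controls and 0.702 to 1.52 CPM in knockouts) and was called lower, by -1.77. Gnas, the G protein subunit that carries the parathyroid hormone signal, and Furin, a protease that cuts FGF23, had the highest levels of the group and were not called (log2 fold change -0.19 and -0.69). Fgf23 itself was at most 0.383 CPM in any library and was not tested.

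Of 17 genes of vitamin D supply and receptor partners, 3 fell, 0 rose and 14 were not called (median log2 fold change -0.45), against 17.2% of all genes called and 6.64% called lower. The 3 were Lrp2 and Cubn, the megalin and cubilin receptors that take up vitamin D with its binding protein, and their adaptor Dab2. Lrp2 read 2390, 3025 and 2692 CPM in controls 1 to 3 and 898, 365 and 247 CPM in knockouts 1 to 3. The lowest control stood well above the highest knockout (log2 fold change -2.42, SE 0.52, edgeR adjusted p = 0.0326). Cubn had a log2 fold change of -2.30 and Dab2 of -1.22.

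Of 12 genes listed for calcium transport and its control, 10 were tested, and 2 rose, 0 fell and 8 were not called (median log2 fold change 0.22), against 10.6% of all genes called higher. Trpv6, an epithelial calcium channel, was low in the controls at 3.83, 2.88 and 5.52 CPM and read 9.95, 15.7 and 43.8 CPM in knockouts 1 to 3. It was 5.66-fold higher, with knockout 3 highest (log2 fold change 2.50, SE 0.59, edgeR adjusted p = 0.0378). Atp2b4, a calcium pump of the plasma membrane, rose from 41.2 to 48.6 CPM in controls to 61.0 to 83.7 CPM in knockouts (log2 fold change 0.64).

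The calcium-binding proteins of the distal nephron, Calb1 and S100g, had the highest levels of that group and were not called. Calb1 read 746, 836 and 1255 CPM in controls 1 to 3 and 985, 672 and 59.6 CPM in knockouts 1 to 3. Only knockout 3 lay far below the controls, and the log2 fold change of Calb1 was -0.73 (SE 0.83, edgeR adjusted p = 0.548). S100g read 670 to 1580 CPM in controls and 277 to 786 CPM in knockouts, with overlap (log2 fold change -0.75).

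**Figure D4:**
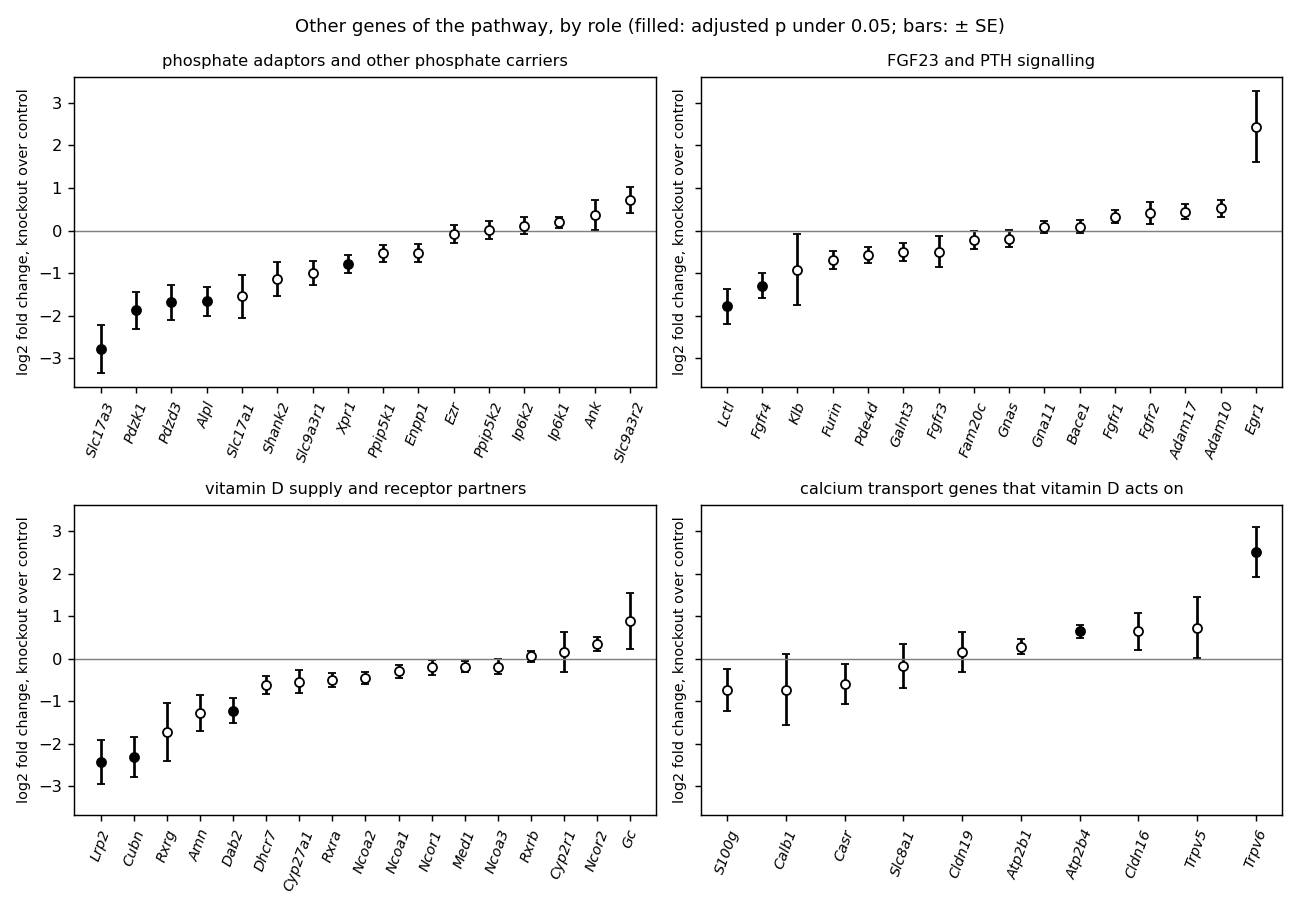
Log2 fold change, knockout over control, of the 59 tested pathway genes, in 4 panels by role (bars, ± SE; filled circles, edgeR adjusted p under 0.05). Filled circles lie below 0 in the phosphate, FGF23 and PTH, and vitamin D panels (5, 2 and 3 genes) and above 0 in the calcium panel (2 genes).

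The genes whose pattern over the 6 libraries was most like that of a given gene were found among 11337 genes whose log2 CPM averaged 3 or more. For Slc34a1 they were Sirt3, a mitochondrial deacetylase, Grtp1 and Ndufc2, a subunit of respiratory complex I, with Pearson r of log2 CPM of 0.9996, 0.9989 and 0.9984. Those for Vdr were Hist1h2bc, Mob3b and Isca2 (r of 0.998, 0.998 and 0.997), and those for Kl were Fam149a, Cdhr2 and Znrd1as (r of 0.994, 0.993 and 0.992). Cyp24a1, with its high control 3, had lower values, of 0.970 for Caprin2, 0.960 for Etv5 and 0.951 for Slc38a6. All points share the same 6 libraries, which fall into the study's 2 groups, and the values are a description.

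Some reads may belong to a neighbour, since the strand setting of the counting was not given in the sources used here. Exons of antisense genes cover 168 bases of Slc34a1 (Pfn3, 5.45% of its exon length), 452 bases of Slc20a1 (9830144P21Rik, 8.10%), 180 bases of Slc20a2 (AI316807, 4.93%) and 83 bases of Cyp24a1 (Pfdn4, 2.33%), and the other 6 genes share no exonic base with another annotated gene.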

How the data were processed

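Whole-kidney libraries (TruSeq, single-end reads of 100 bases) were deposited by the authors as raw counts per gene, 1 table per group. Per the study's methods and processing notes, the authors used CASAVA 1.8.2, Trimmomatic, TopHat2 2.0.11 (mm9, uniquely mapped reads) and HTSeq, and tested with DESeq2. The annotation and strand setting are not given in the sources used here. Groups and replicate numbers came from the sample titles.

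Counts were filtered with filterByExpr and TMM-normalised, and the 3 controls and 3 knockouts were compared with edgeR 4.0.16 (quasi-likelihood test, R 4.3.3, no covariate), with Benjamini-Hochberg adjustment over 15171 genes and a threshold of 0.05. SE is the log2 fold change divided by the square root of F. Counts carry no molecular identifiers. Coordinates and exon lengths are from GENCODE M1, which held 20791 of the gene names. The main edgeR fit, and no other step, was tested on simulated counts. Ratios within a library were compared by two-sided exact permutation tests (scipy 1.17.1).

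The genes and lists were chosen with earlier results of these data known. Named were all 10 genes, the pathway genes called, the 2 with the highest mean CPM of each role, markers where a result turned on them, and the 3 genes most correlated with each of Slc34a1, Kl, Vdr and Cyp24a1. Fgf23 and 6 further distal tubule markers were named outside this rule, after their values were seen. Alternatives were other scalings (DESeq2 1.42.0 size factors, upper quartile, library size), filters and tests (newer quasi-likelihood version, DESeq2, limma-voom 3.58.1), each library left out, the replicate number as a block, and the ratio of Xist to Y-linked counts as covariate.

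Deviations of same-numbered libraries from the group mean correlated at -0.13, 0.01 and 0.21, and the numbers were not taken as pairs. Replicates differed by a chi-square of 52.9 to 125 per degree of freedom, so each counted as 1 sample. Of the other lists checked, thick ascending limb had 0 of 6 genes called but 5 of 6 lower (median log2 fold change -1.40, summed 6000 to 12267 CPM in controls and 7528, 1134 and 1872 CPM in knockouts 1 to 3). Collecting duct had 0 of 8 called, endothelium 0 of 6, adipocyte 0 of 5, podocyte 1 of 6 (higher) and T and B lymphocyte 4 of 9 (higher). The shares called over all genes tested were 17.2% in either direction, 6.64% lower and 10.6% higher. Of the red cell and adrenal cortex lists, 1 gene each was tested and not called, and 4 globin genes and Cyp11b2 were listed at 0 in every library.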

Additional observations from a re-analysis of the deposited data

How the results depend on the processing

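Over 16 alternatives for each of the 10 genes (160 values), 120 kept the direction and the side of the threshold. In 30 the call was lost and in 6 gained with the direction kept, whether the fold change was larger or smaller, and 4 reversed in direction. The reversed values were small: Slc20a1 at -0.00255 and Cyp27b1 at -0.02 without control 1, Cyp27b1 at -0.17 without knockout 2 and Cyp24a1 at 0.0528 without control 3. With 1 library left out, the log2 fold change of Slc20a1 ranged from -0.00255 to 0.35, of Cyp27b1 from -0.17 to 0.53 and of Cyp24a1 from -1.29 to 0.0528. Of the 10 genes 4 were called with all 6 libraries, and leaving out 1 library gave 0 to 5, with 0 of the 65 pathway genes called at the lowest and 22 at the highest (12 with all 6). The count over all genes, 2612, ranged from 0 to 5332 when 1 library was left out. DESeq2's Wald test called 23 pathway genes and 4882 genes in all. With the replicate number as a block, edgeR called 0 genes in all, 0 of the 10 and 0 of the pathway (5432, 6 and 28 at an unadjusted p under 0.05), and not every library correlated best with its own number, so that no pairing was taken from them. With the Xist to Y covariate these counts were 0, 0 and 0 (4219, 5 and 19 unadjusted). The cause was not tested, and fewer samples or residual degrees of freedom enter these fits. The Slc34a1 to proximal marker ratio, -0.29, ranged from -0.39 to -0.12 when 1 library was left out and turned to 0.34 with Lrp2 alone. The Cyp24a1 to Cyp27b1 ratio ranged from -0.98 to -0.10. Library size alone gave 3640 calls over all genes, 2979 of them higher, against 1604 of 2612. The smallest library, knockout 3, held 11501053 counts, of which 108 were of Slc34a3 and 115 of Slc34a2.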
